A study of Mus musculus with 16 samples.

Results

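Arntl, Npas2, Per1, Per2, Per3, Cry1, Nr1d1, Nr1d2, Dbp and Tef, 10 genes of the circadian clock, were followed in the colon of mouse pups born by C-section (CSD) or vaginally (VD). They were found by gene name in the scanner output of 16 one-colour microarrays, where all 10 were present among 36711 genes. The study asked how delivery mode changes the gut of the offspring, and each array held colon RNA of 1 pup taken at weaning. The 8 CSD pups were removed from RjOrl:SWISS dams by hysterectomy just before term and raised by foster mothers that had delivered vaginally. The 8 VD pups were born vaginally to dams of the same stock, and these dams exchanged litters with each other, so that pups of both groups were nursed by a mother other than their own. The CSD pups came from mother 3 (2 females, 2 males) and mother 4 (2 females, 2 males), and the VD pups from mother 5 (2 females, 3 males) and mother 6 (3 males). Each delivery mode therefore rests on 2 litters, and pups of 1 litter share their mother. Both slides carried 4 CSD and 4 VD pups. The hour at which each pup was sampled is not given in the sources used here. Pups are named below by delivery mode and the number in their label.

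The circadian clock is a transcriptional loop that runs in nearly every cell. BMAL1 (the product of Arntl) pairs with CLOCK or NPAS2 and binds E-boxes to switch on the Per and Cry genes, whose products then block that pair. The same pair drives the REV-ERB receptors Nr1d1 and Nr1d2, which repress Arntl, and the PAR bZIP factors Dbp and Tef, which bind D-boxes in many output genes, so that Arntl and Npas2 run opposite in phase to Per, Nr1d1 and Dbp. In the colon, as in the liver, the peripheral clock follows feeding time, and it is known for gating epithelial renewal, motility and transport.

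The promoters of the clock genes are shown first, because E-boxes, D-boxes and REV-ERB elements are the sequences through which the proteins named above act. Promoters spanning 250 bases before to 50 bases after the start site were taken from RefSeq (build GRCm38.p6), which gave 12 promoters for 9 of the 10 genes. Both strands were searched for the E-box CACGTG, the related E-box CACGTT, the D-box TTANGTAA and TAGGTNA, part of the element bound by REV-ERB and ROR receptors. No 2 matches shared a base. Shown are the stretches from 20 bases before the first match to 20 bases after the last, leaving out matches that end more than 20 bases past the start site, written 5′ to 3′ on the strand of the gene with the matched bases in capitals. Ciart, an E-box gene whose product represses CLOCK and BMAL1, is shown with them because it returns in the results.
Arntl, chr7:113207485-113207531 (+): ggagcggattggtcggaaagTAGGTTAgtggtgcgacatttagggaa
Cry1, chr10:85185089-85185153 (-): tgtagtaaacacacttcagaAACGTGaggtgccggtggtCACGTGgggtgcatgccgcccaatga
Per1, chr11:69098763-69098808 (+): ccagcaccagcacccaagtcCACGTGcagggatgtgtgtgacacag
Per3, chr4:151044796-151044890 (-): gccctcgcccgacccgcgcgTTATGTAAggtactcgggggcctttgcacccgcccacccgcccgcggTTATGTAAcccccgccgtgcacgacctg
Nr1d1, chr11:98775380-98775425 (-): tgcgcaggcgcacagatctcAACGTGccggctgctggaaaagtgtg
Tef, chr15:81802526-81802571 (+): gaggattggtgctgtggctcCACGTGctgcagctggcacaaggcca
Tef, chr15:81811256-81811301 (+): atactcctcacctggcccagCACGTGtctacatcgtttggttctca
Ciart, chr3:95882247-95882364 (-): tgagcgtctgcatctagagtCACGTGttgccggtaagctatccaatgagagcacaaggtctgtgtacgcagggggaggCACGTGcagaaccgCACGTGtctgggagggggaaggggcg

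CACGTG stood in 4 of the 12 promoters (Cry1, Per1 and both of Tef), against 7.15% of all 32851 promoters of this length. CACGTT stood in 2 of 12 (Cry1 and Nr1d1, against 4.68%), TTANGTAA in 1 of 12 (Per3, against 2.32%) and TAGGTNA in 2 of 12 (the overlapping promoters of Arntl, against 8.29%). Arntl held another TAGGTNA match, which began at base 31 past its start site, and Ciart held 3 copies of CACGTG. The Dbp, Nr1d2 and Npas2 windows held none of the 4 motifs, which says only that these letters are not in these 300 bases.

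The 10 genes were read by 24 probes of 60 bases, of which 19 were well above background on all 16 arrays. Probe positions below are those of the scanner files (build mm9). Per gene, the probes were averaged on the log2 scale after background correction and quantile normalization. Npas2, the partner of BMAL1 that replaces CLOCK in some tissues, had 1 probe, well above background on 4 arrays only (CSD 2, CSD 9, VD 9 and VD 10), so its values lie close to the detection limit. Per1 had 2 probes, of which 1 was well above background on all 16 arrays and the other on 0, and its mean over both probes understates a change of the bright probe. Of the 24 probes, 3 covered more genome than their length and so read across an intron, which ties their signal to spliced RNA.
Arntl, A_66_P127371, chr7:120435023-120436706 (+): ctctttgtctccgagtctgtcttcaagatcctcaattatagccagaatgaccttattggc
Nr1d1, A_51_P223776, chr11:98630526-98631028 (-): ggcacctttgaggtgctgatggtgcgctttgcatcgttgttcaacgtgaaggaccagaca
Tef, A_52_P173309, chr15:81651816-81653921 (+): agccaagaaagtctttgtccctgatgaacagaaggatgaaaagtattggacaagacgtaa

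Between CSD and VD pups, 0 of the 10 clock genes passed the test (a limma fit on delivery mode and sex with mother as a random effect, Benjamini-Hochberg adjusted p under 0.05), while 1.25% of all 36711 genes did, 0.706% higher and 0.548% lower in CSD pups. At an unadjusted p under 0.05 the count was 1 of 10 (Per1), against 14.5% of all genes. Of the 10 differences 5 were positive and 5 negative, and their median was -0.01 on the log2 scale against 0.003 over all genes. The CSD and VD pups overlapped for every clock gene, whereas 0.493% of all genes had groups that did not overlap.

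Among the activators, Arntl ran from 6.88 to 7.41 in CSD pups (median 7.22, log2 intensity) and from 6.95 to 7.43 in VD pups (median 7.19). The fitted difference was 0.01 ± 0.09 (CSD minus VD, log2, SE), with a 95% interval from -0.19 to 0.21. Npas2 differed by -0.03 ± 0.09 (adjusted p = 0.921). Neither group lay above the other for these 2 genes.

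Of the repressors, Cry1, the main transcriptional repressor of the loop, had the narrowest range of the 10, with 6.55 to 6.82 in CSD and 6.62 to 6.86 in VD pups and a difference of -0.05 ± 0.04 (adjusted p = 0.647). Of its 2 probes, 1 was well above background on all 16 arrays and the other on 14. Per2 differed by 0.09 ± 0.10 (adjusted p = 0.746) and Per3 by -0.07 ± 0.13 (adjusted p = 0.866). Per1, a Per gene that also answers to glucocorticoids and light, ran from 9.01 to 9.51 in CSD pups (median 9.08) and from 8.64 to 9.27 in VD pups (median 8.92). Its difference of 0.19 ± 0.09 had an adjusted p of 0.334, and 1 CSD pup (CSD 2) lay above all VD pups. Permuting the pups between delivery modes gave an exact two-sided p of 0.0256 for Per1 before any adjustment, and an exact p from 0.0507 to 0.0544 without any 1 of CSD 2, VD 9 and VD 11. All permutations between delivery modes exchange pups freely and ignore their litters, so these p-values measure the spread of pups only.

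The Per1 difference varied with the probe, the background correction and the litters included. The bright probe (A_55_P1970033, chr11:68923364-68923423, plus strand) read 12.16 ± 0.32 in CSD and 11.70 ± 0.39 in VD pups (SD, n = 8 each), while the probe at background read 6.13 ± 0.07 and 6.17 ± 0.07. With the scanner's own background correction and quantile normalization the mean of both probes differed by -0.06 (adjusted p = 0.922). Without the litter of mother 6 the difference was 0.30 and passed the test (adjusted p = 0.0176), and without the litter of mother 5 it was -0.05 (adjusted p = 0.865). Of 10 listed genes of the glucocorticoid response, a list that holds Per1 itself, 1 passed the test, against 1.25% of all genes, and 8 had positive differences (median 0.16). At an unadjusted p under 0.05 the count was 5 of 10, against 14.5% of all genes. The 1 called, Fkbp5, a chaperone partner induced by the glucocorticoid receptor, rose by 0.65 ± 0.10 (adjusted p = 0.00807, and 0.172 without the litter of mother 5). The part of that response in the Per1 values was not tested.

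The REV-ERB and PAR bZIP genes did not pass either. Nr1d1 differed by -0.12 ± 0.11 (adjusted p = 0.664) and Nr1d2 by 0.10 ± 0.13 (adjusted p = 0.787). Dbp, the most strongly cycling of these outputs in most tissues, ran from 14.31 to 15.11 in CSD pups (median 14.65) and from 13.97 to 15.44 in VD pups (median 14.67). Its difference was -0.17 ± 0.20 (adjusted p = 0.758), with a 95% interval from -0.59 to 0.25 (folds from 0.667 to 1.19). That interval rests on a fit with a litter correlation of 0.015, as do the others between delivery modes. Yet 58.0% of the sum of squares of Dbp lay between litters of the same delivery mode, so this interval understates the uncertainty. At both Dbp probes the CSD mean (14.76 and 14.52) lay above that of the litter of mother 5 (14.66 and 14.32). It lay below that of the litter of mother 6 (15.43 and 15.18), so the sign depends on the litter. Tef differed by 0.03 ± 0.16 (adjusted p = 0.952). For both genes the spread was wider in VD pups, with an SD of 0.48 against 0.27 for Dbp and 0.36 against 0.26 for Tef.

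**Figure D1:**
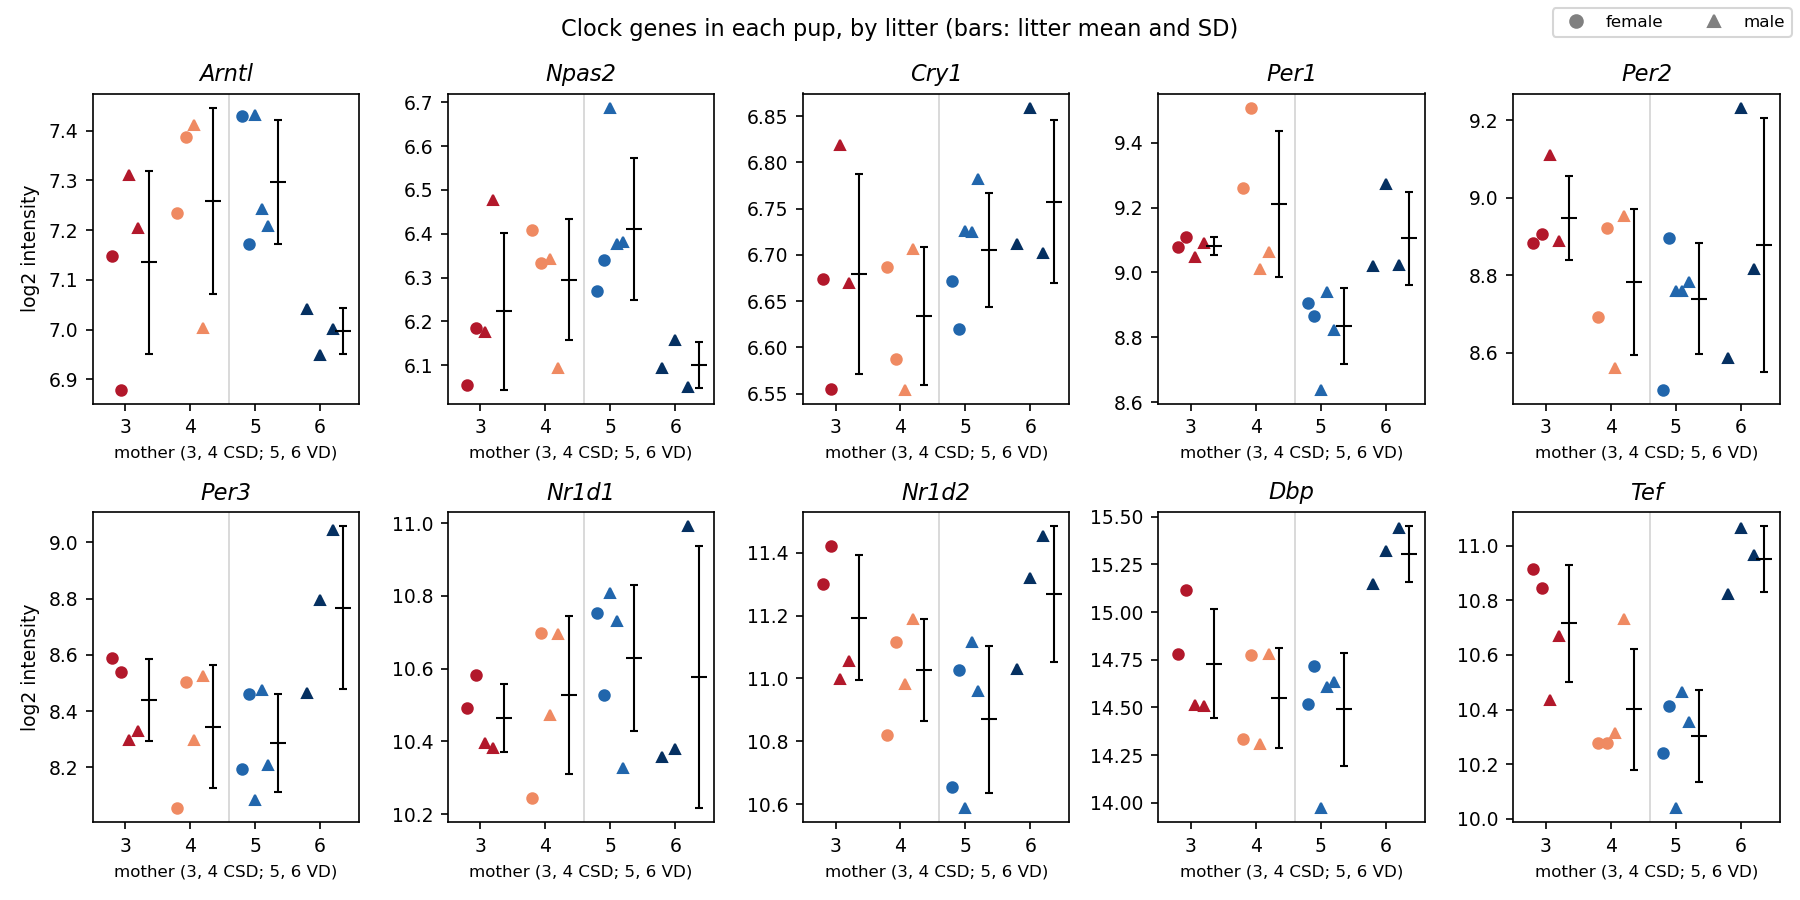
Log2 intensity of the 10 clock genes in each of the 16 pups, grouped by mother (3 and 4 CSD, 5 and 6 VD), with circles for females, triangles for males and a bar for each litter's mean and SD. The 3 pups of mother 6 lie below all 5 pups of mother 5 for Arntl and Npas2 and above them for Per1, Dbp and Tef.

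The wider spread of the VD pups was between their 2 litters. The 3 pups of mother 6 had higher Dbp and Tef than the 5 pups of mother 5, and 2 of the 10 clock genes passed the test for this difference (limma with litter and sex as fixed effects), against 0.874% of all genes (0.564% higher and 0.311% lower in the litter of mother 6). Those 2 were Dbp and Tef, both higher. At an unadjusted p under 0.05 the count was 7 of 10 against 11.5% of all genes. The litters did not overlap for 5 of the 10 clock genes, against 8.12% of all genes, and the median difference was 0.23 over the clock genes against -0.004 over all genes.

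Dbp, which activates D-box genes, read 14.52, 14.72, 13.97, 14.61 and 14.63 in the pups of mother 5 (VD 4, 5, 9, 10 and 11). It read 15.15, 15.32 and 15.44 in the pups of mother 6 (VD 6, 7 and 8). The lowest pup of mother 6 was thus above the highest of mother 5, and none of the 8 CSD pups reached it. The fitted difference was 0.90 ± 0.17 (log2, SE, mother 6 minus mother 5, adjusted p = 0.0299), a fold of 1.87 with a 95% interval from 1.44 to 2.42, and both Dbp probes differed in that direction (0.77 and 0.86).

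Tef, the PAR bZIP relative of Dbp, read 10.24, 10.41, 10.04, 10.47 and 10.35 in the litter of mother 5. The litter of mother 6 read 10.82, 11.06 and 10.96, again with no overlap. Tef differed by 0.66 ± 0.14 (adjusted p = 0.0406), a fold of 1.58 (95% interval 1.29 to 1.94). All 4 Tef probes were higher in the litter of mother 6, from 0.33 at the probe printed above that crosses an intron to 0.89.

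The activators ran the other way without passing the test. Arntl read 7.43, 7.17, 7.43, 7.24 and 7.21 in the litter of mother 5 and 7.04, 6.95 and 7.0 in that of mother 6, a difference of -0.32 ± 0.11 (adjusted p = 0.245). The 3 Arntl probes well above background on all arrays were lower in the litter of mother 6, with differences from -0.23 at the probe across an intron to -0.47, and the remaining probe was not well above background in any pup of mother 6. Npas2 differed by -0.34 ± 0.11 (adjusted p = 0.172) on its single probe close to background. Both genes were lower in all 3 pups of mother 6 than in any pup of mother 5. The Npas2 probe was not well above background in any pup of mother 6, so its difference and order are uncertain.

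None of the repressors passed the test. Per1 was higher by 0.33 ± 0.09 (adjusted p = 0.133) with no overlap between the litters, and its bright probe alone read 11.46 ± 0.20 and 12.09 ± 0.29 (SD) in the litters of mothers 5 and 6. Per3, a Per gene with a smaller role in keeping the rhythm, was higher by 0.51 ± 0.15 (adjusted p = 0.142), at all 3 of its probes. Per2 differed by 0.12 ± 0.14, with differences of litter means of 0.23 at its bright probe and 0.05 at a probe close to background, and Cry1 by 0.02 ± 0.06. Nr1d2 was higher by 0.42 ± 0.15 (adjusted p = 0.260), while Nr1d1 differed by -0.05 ± 0.16 and its 3 values in the litter of mother 6 (10.36, 10.38 and 10.99) overlapped those of mother 5. For Arntl, Npas2, Per1, Dbp and Tef the exact two-sided permutation test of 3 against 5 pups gave p = 0.0179, which is the smallest p that its 56 assignments allow.

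**Figure D2:**
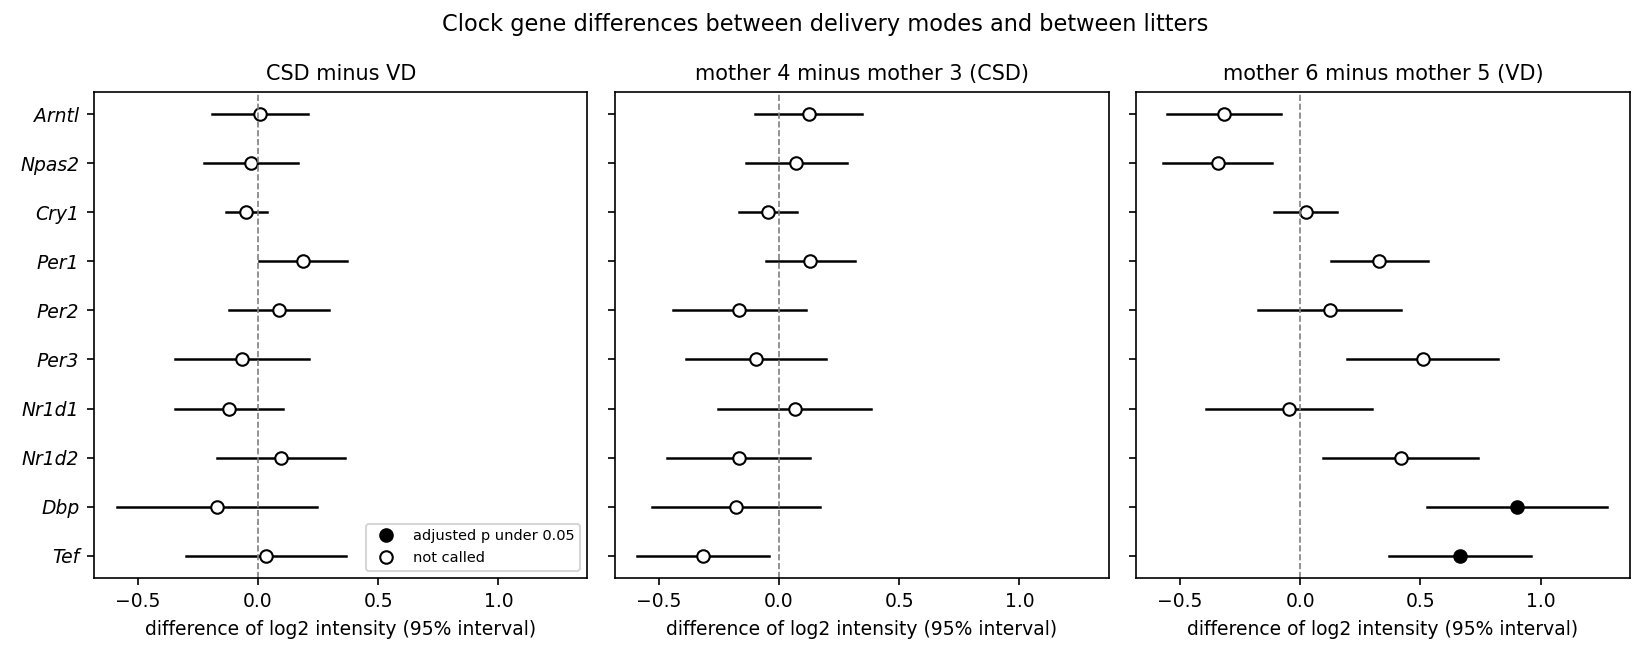
Differences of log2 intensity of the 10 clock genes with 95% intervals, for CSD minus VD (left), mother 4 minus mother 3 (middle) and mother 6 minus mother 5 (right), filled where the adjusted p is under 0.05. Only Dbp (0.90) and Tef (0.66) on the right are filled.

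The difference in Dbp between the VD litters was 0.93 on slide 1 (adjusted p = 0.636), 0.88 on slide 2 (adjusted p = 0.459) and 0.90 among males alone (adjusted p = 0.0935). Slide 1 held 1 pup of mother 6 against 3 of mother 5, so its value rests on a lone sample assumed to vary like the others, and slide 2 held 2 of each. Without VD 11, the array with the fewest spots above background (58.7%), it was 0.98 (adjusted p = 0.0381). The call depended on single pups: without any 1 of VD 6, VD 7, VD 8 or VD 9 the adjusted p of Dbp lay between 0.0703 and 0.132, and without the litter of mother 3, which shares the estimate of the spread, it was 0.0662. For Tef the call was lost without any 1 of the 8 VD pups or of CSD 5, CSD 6 and CSD 9, with adjusted p from 0.0544 to 0.141. The Tef call was also lost without the litter of mother 3. Both calls were also lost with a normexp offset of 0 and with the scanner's own background correction, while the direction held for both genes in all 33 alternatives run.

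Between the 2 CSD litters, 0 of the 10 clock genes passed the test, against 0.0872% of all genes (0.0436% higher and 0.0436% lower in the litter of mother 4), and 1 of 10 (Tef) had an unadjusted p under 0.05, against 7.68%. Tef read 10.91, 10.85, 10.43 and 10.67 in the litter of mother 3 and 10.28, 10.28, 10.32 and 10.73 in that of mother 4, a difference of -0.32 ± 0.13 (mother 4 minus mother 3, adjusted p = 0.558). For every clock gene the CSD litters overlapped, while 4.06% of all genes had CSD litters that did not overlap. Whether the difference between litters was larger in VD than in CSD pups was not tested.

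The sex of the pups gave no call among the clock genes either. Between females and males 0 of 10 passed the test against 0.0599% of all genes (0.0245% higher and 0.0354% lower in females), 0 of 10 had an unadjusted p under 0.05 against 6.45%, and all 10 intervals included 0. No difference by sex in the effect of delivery mode was detected for any clock gene (0 of 10 called against 0.00272% of all genes, and 0 of 10 at an unadjusted p under 0.05 against 4.72%). The VD group held 2 females, both of mother 5, and the interval of that interaction was wide, from -0.40 to 1.29 for Dbp and from -0.34 to 0.81 for Per3.

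As a description, the spread over the 16 pups was divided between delivery modes, litters of the same delivery mode and pups of a litter. Between litters of the same delivery mode lay 69.7% of the sum of squares of Tef, 58.0% of Dbp, 46.7% of Per3, 42.0% of Arntl, 41.6% of Npas2 and 39.2% of Nr1d2, but 2.08% of Nr1d1 and 8.48% of Cry1. For Per1 the shares were 28.4% between litters and 29.5% between delivery modes. Pups of the same litter differed too: the SD within litters was 0.27 for Dbp, larger than that of 91.8% of 20589 genes well above background, and 0.08 for Cry1, larger than that of 27.9%.

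Set against each other, the opposing arms of the loop gave 1 number per pup: the mean of Arntl and Npas2 minus the mean of Per1, Per2, Per3, Nr1d1 and Dbp (log2), given as a description because its genes were already tested. It was -3.58 ± 0.25 in CSD and -3.58 ± 0.38 in VD pups (SD, n = 8 each). In the litter of mother 5 it read -3.33, -3.54, -2.99, -3.49 and -3.36, and in that of mother 6 -3.75, -4.05 and -4.14. The equal means of the 2 delivery modes thus covered VD litters that did not overlap on this scale. Low values were not confined to the litter of mother 6. CSD 3 (-3.76), CSD 5 (-3.92) and CSD 7 (-3.85) lay within its range. Npas2, which enters the index, was well above background on 4 arrays only and in no pup of mother 6.

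**Figure D3:**
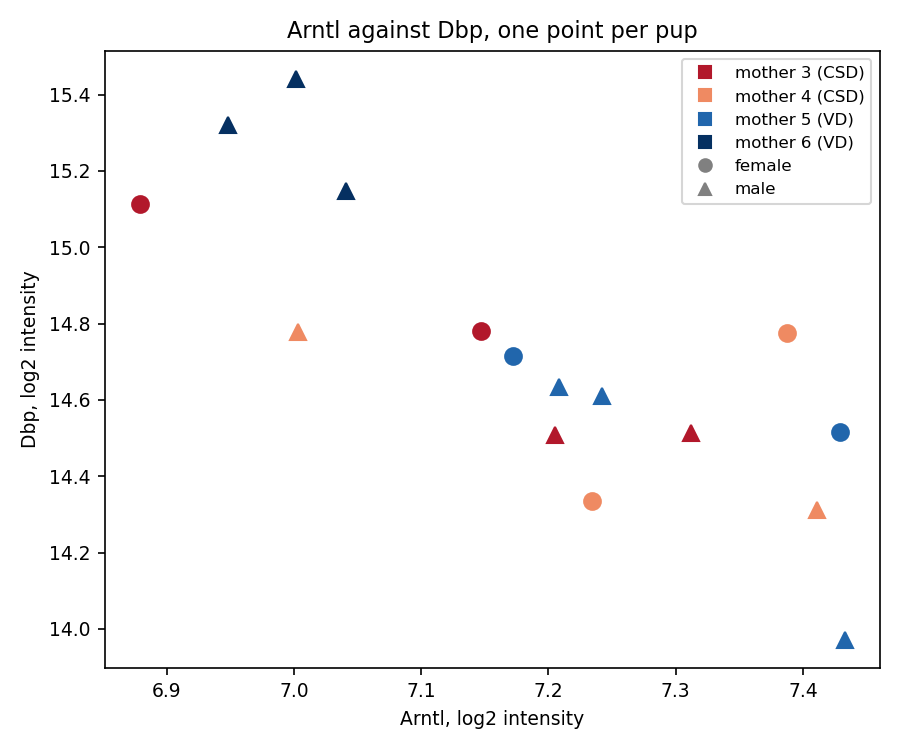
Log2 intensity of Dbp against that of Arntl in the 16 pups, with a colour for each mother. The pups of mother 6 lie at the end with high Dbp (15.15 to 15.44) and low Arntl (6.95 to 7.04). CSD 5 lies near them, with Dbp at 15.11 and the lowest Arntl of the 16 pups (6.88).

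Within the CSD pups, whose litters overlapped, Per3, Nr1d2 and Dbp, which peak close to each other in most tissues, went up and down together from pup to pup. Of 45 gene pairs in each delivery mode, 90 in all, 3 passed in CSD pups, all among these 3 genes, and 15 in VD pups (7 by rho), where the litters stood apart for 5 genes, while 24 of the 45 CSD pairs had an r above 0 (exact permutation tests, Benjamini-Hochberg over the 90). Nr1d2 and Dbp gave r = 0.93 (adjusted p = 0.0193) and rho = 0.95 (exact permutation, adjusted p = 0.0171). Per3 and Nr1d2 gave r = 0.91 (adjusted p = 0.0198) and rho = 0.98 (exact permutation, adjusted p = 0.0119), and Per3 and Dbp r = 0.84 (adjusted p = 0.0425) and rho = 0.93 (exact permutation, adjusted p = 0.0223). Without the 2 pups farthest from the median of the first-named gene of each pair, as also below, these r were 0.84, 0.84 and 0.90. The 3 passing CSD pairs became 1 with the brightest probe per gene and 5 with the stricter probe filter.

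Across the arms the sign turned but the tests were not passed. Arntl and Tef gave r = -0.80 in CSD pups (exact permutation, adjusted p = 0.0728) and -0.79 without the 2 farthest pups. Arntl and Dbp gave r = -0.73 (exact permutation, adjusted p = 0.132), which was -0.24 without the 2 pups farthest in Arntl and so rests on them. In VD pups a pooled r of clock genes is given here only where the litters overlapped for both (Cry1, Per2, Per3, Nr1d1 and Nr1d2). Of these pairs only Per3 and Nr1d2 passed. The others ran from r = -0.42 (Cry1 and Nr1d1) to 0.60 (Cry1 and Per2). Per3 and Nr1d2 gave r = 0.94 (exact permutation, adjusted p = 0.00781), 0.89 without the 2 pups farthest in Per3. For both genes 2 of the 3 pups of mother 6 lay above all pups of mother 5, so the difference between these litters enters this r. Littermates are not independent samples, and each slide held 4 pups of a delivery mode, too few for a value within slides.

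**Figure D4:**
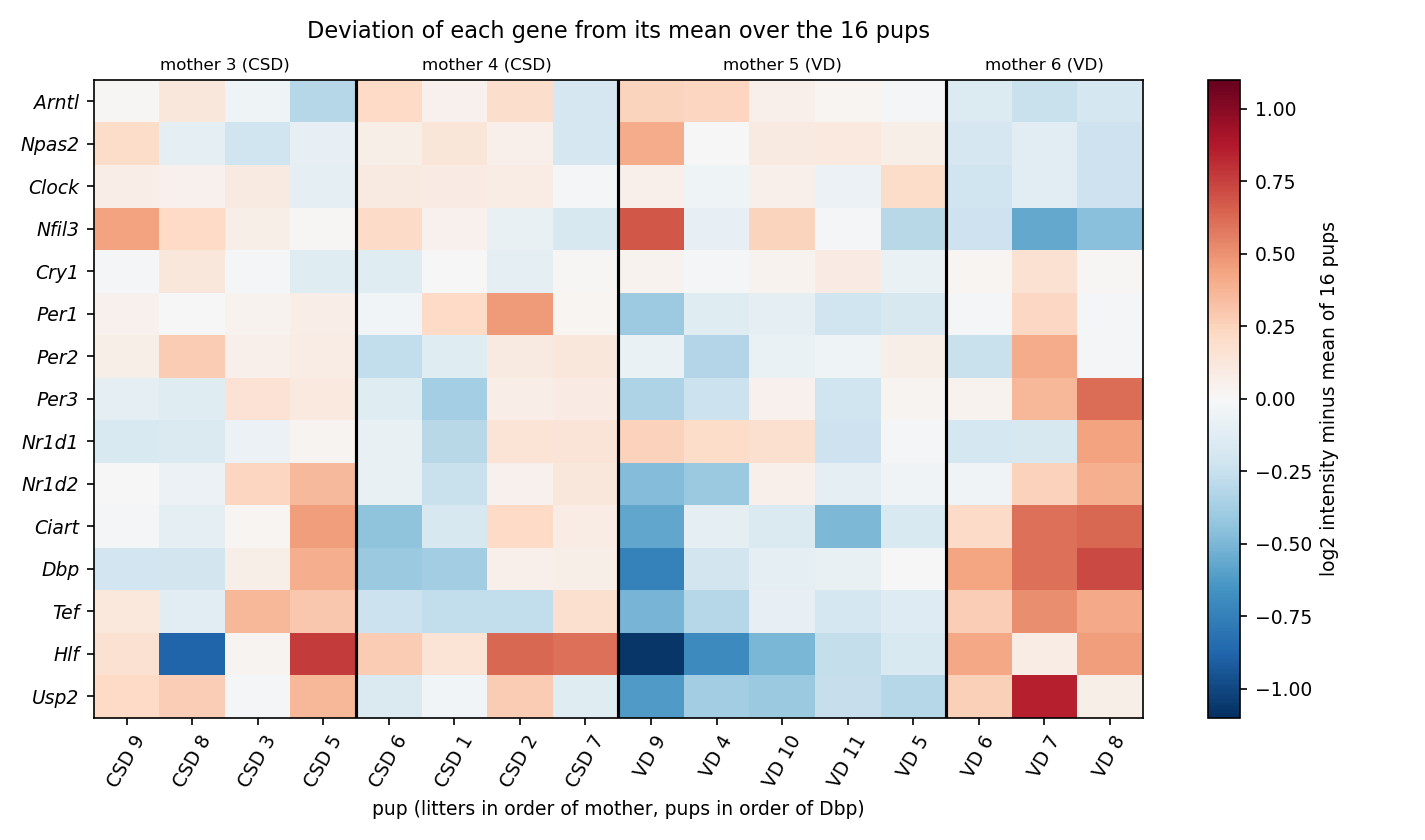
Deviation of 15 genes (rows: the 10 clock genes with Clock, Nfil3, Ciart, Hlf and Usp2) from their means over the 16 pups (colour, log2), with pups in columns grouped by mother and ordered by Dbp. In the columns of mother 6, Dbp, Tef and Per3 are above their means and Arntl and Npas2 below.

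Among 20526 other genes well above background, the gene most like Dbp across the 16 pups, after subtracting the mean of each delivery mode, was Ciart (r = 0.93). Placed in the same ranking, Nr1d2 came at rank 2, Tef at rank 4 and Per3 at rank 5. Per1 came at rank 737 (r = 0.61) and Per2 at rank 2459 (r = 0.42). Nr1d1 (rank 8500, r = 0.06) and Cry1 (rank 8949, r = 0.04) showed little likeness to Dbp. Arntl and Npas2 stood at the opposite end, at ranks 32 and 30 from the lowest (r = -0.83 for both). Npas2 was well above background on 4 arrays only, so its rank is uncertain. With Arntl as the reference, Tef was the 4th most opposite gene (r = -0.88), Dbp the 11th and Nr1d2 the 17th. Per2 gave r = -0.45 with Arntl, Per1 -0.28, Cry1 -0.14 and Nr1d1 0.10. These are descriptions over pups that share litters, and the difference between the litters of mothers 5 and 6 enters them. With the mean of each litter subtracted, a setting chosen after seeing the data, Dbp gave r = 0.85 with Nr1d2 (rank 6), 0.81 with Ciart (rank 22), 0.75 with Per3 (rank 74) and 0.72 with Tef (rank 123), and -0.69 with Arntl (rank 273 from the lowest), so these genes stood lower in the ranking than before. In that setting Dbp gave r = 0.46 with Per1, 0.28 with Per2, 0.25 with Nr1d1, -0.30 with Cry1 and -0.68 with Npas2.

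Beyond the 10 genes, 23 further genes of the clock machinery (kinases, RORs, other repressors and cofactors) were all on the array. Between CSD and VD pups 1 of 23 passed the test, against 1.25% of all genes: Tipin, the partner of Timeless at the replication fork, was lower in CSD pups by -0.43 ± 0.10 (adjusted p = 0.0393), with 9.69 ± 0.17 in CSD and 10.14 ± 0.21 in VD pups (SD, n = 8 each). That call was lost without any 1 of CSD 1, 2, 3, 5, 7 and 8 or VD 4, 5, 6, 10 and 11 (adjusted p from 0.0523 to 0.0877), and also with a normexp offset of 0 or 16, the scanner's own correction by either scaling, the deposited gene matrix and litter means as samples. The 23 split into 12 higher and 11 lower, with a median of 0.02, and 3 had an unadjusted p under 0.05, against 14.5% of all genes. Between the VD litters 1 of 23 passed, against 0.874% of all genes, with 11 higher and 12 lower and a median of -0.02. At an unadjusted p under 0.05 the count was 6 of 23, against 11.5% of all genes. The 1 called, Ciart, was higher by 0.89 ± 0.15 in the litter of mother 6 (adjusted p = 0.0192). Ciart read 7.48, 7.41, 7.0, 7.42 and 7.09 in the pups of mother 5 and 7.79, 8.19 and 8.21 in those of mother 6, so its litters, like those of Dbp, did not overlap, and the call was lost without VD 7, VD 8 or VD 9 (adjusted p from 0.0628 to 0.0937). Its promoter is the one above with 3 copies of CACGTG.

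Of 24 listed output genes that cycle in peripheral tissues, 1 passed between CSD and VD pups, against 1.25% of all genes, and 1 between the VD litters, against 0.874%. Por, the electron donor of the cytochrome P450 enzymes, was lower in CSD pups by -0.34 ± 0.04 (adjusted p = 0.0017), from 13.24 to 13.46 in CSD and from 13.60 to 13.76 in VD pups, with no overlap. Without the litter of mother 5 the adjusted p of Por was 0.0596. Usp2, a deubiquitinase whose gene follows the clock in many tissues, was higher in the litter of mother 6 by 0.83 ± 0.16 (adjusted p = 0.0308). It read 8.68, 8.75, 8.44, 8.66 and 8.81 in the litter of mother 5 and 9.33, 9.92 and 9.13 in that of mother 6, and it was no longer called without VD 6, VD 7, VD 9 or VD 10 (adjusted p from 0.0675 to 0.0963). Over the 24 genes the median difference between the VD litters was 0.13, with 15 higher and 9 lower. An unadjusted p under 0.05 was found for 8 of 24 between the VD litters, against 11.5% of all genes. Between CSD and VD pups it was found for 6 of 24, against 14.5%.

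Of the same 23 genes, 3 chosen after their values were seen did not pass the test between the VD litters. Nfil3, which represses the D-boxes that Dbp and Tef activate, was lower in the litter of mother 6 (-0.64, adjusted p = 0.0812). Hlf, the remaining PAR bZIP gene, was higher (0.98, adjusted p = 0.148), and Clock, the main partner of BMAL1, was lower (-0.22, adjusted p = 0.162).

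Markers of other cell types and states were read beside these differences, since in bulk colon fewer cells of a type and less RNA per cell cannot be told apart. Between the VD litters 0 genes passed on the lists for colonocytes (12), leukocytes (12), smooth muscle (10), enteric neurons and glia (12), endothelium (8), small intestine (9), adipose tissue (9) and exocrine pancreas (8). Over all genes 0.874% passed, so 0 on lists this short says little. An unadjusted p under 0.05 was found for 2 colonocyte genes and 1 each of the endothelial, small-intestinal and pancreatic lists. The other lists had 0, against 11.5% of all genes. The median differences of the lists lay from -0.14 (leukocytes) to 0.05 (small intestine). The summed intensity of the leukocyte markers, led by Jchain, was 51357 ± 18613 (SD, n = 5) in the litter of mother 5 and 50894 ± 10591 (SD, n = 3) in that of mother 6. That of the colonocyte markers, led by Krt8, was 507979 ± 37843 and 464753 ± 25923. The pancreatic sum, led by Cela1, was 23203 ± 1508 and 31055 ± 4185. Of the 8 pancreatic genes, 4 were well above background on all 16 arrays and 3 (Prss2, Pnlip and Amy2a5) on 0. Of the 9 small-intestinal genes, led by Fabp2, 3 were well above background on all 16 arrays and 4 (Apoa1, Apoa4, Sis and Lct) on 0.

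Of 12 listed immediate early genes, which respond within minutes to stimulation, 0 passed the test between the VD litters, against 0.874% of all genes, and 6 had an unadjusted p under 0.05, against 11.5%. The differences of 10 of them were negative (mother 6 minus mother 5), with a median of -0.35 against -0.004 over all genes (Fosl2 -0.24 and Atf3 -0.92 had the smallest p, both with adjusted p over 0.05). Their summed intensity, led by Jun, was 33448 ± 8278 in the litter of mother 5 and 22494 ± 3033 in that of mother 6. Of the 10 listed glucocorticoid response genes, which include Per1, 0 passed between the VD litters, against 0.874% of all genes. An unadjusted p under 0.05 was found for 4 of the 10, Per1 among them, against 11.5% of all genes. In the litter of mother 6, 6 of them were higher and 4 lower (median 0.03). The part of either list in the difference of the clock genes was not tested.

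Between the delivery modes, 0 genes passed on any of these cell type lists or among the immediate early genes, against 1.25% of all genes. All 12 leukocyte markers were lower in CSD pups (median -0.30, 0 passed the test and 6 had an unadjusted p under 0.05, against 14.5% of all genes; Cd79a, at -0.48, had the smallest p), with summed intensities of 31078 ± 14362 in CSD and 51183 ± 15168 in VD pups (SD, n = 8 each). Of the colonocyte markers 11 of 12 were higher (median 0.17), of the immediate early genes 11 of 12 lower (median -0.27, 7 with an unadjusted p under 0.05), of the endothelial markers 8 of 8 lower (median -0.13), of the smooth muscle markers 9 of 10 lower (median -0.11) and of the adipose markers 5 of 9 lower (median -0.08). The medians of the small-intestinal (0.01), pancreatic (-0.01) and enteric neuron and glia (0.03) lists lay close to that of the clock genes (-0.01), and whether any list differed from the clock genes was not tested. Their part in the values of the clock genes was not tested.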

How the data were processed

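Colon RNA of 16 pups was hybridised to 1-colour arrays, and the deposited scanner files hold each spot's intensity before normalization (Feature Extraction 12.0.3.2). The authors also deposited a matrix of log2 values, corrected, quantile-normalized and averaged by gene with limma 3.38 per the submitters' processing notes. Here, mean signals were corrected with normexp (offset 50), quantile-normalized on the log2 scale with limma 3.58.1 in R 4.3.3, filtered (above the lowest 5% quantile in at least 4 arrays) and averaged by gene, which left 56366 of 56605 probes and 36711 genes. Between 58.7% and 64.9% of spots were well above background, with 0 saturated. Array number limits the precision.

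Delivery mode and sex were fixed effects and mother a random effect (duplicateCorrelation, consensus correlation 0.015). Litters were compared with litter and sex fixed, so pups are the replicates and p-values measure their spread. Adjusted p-values are Benjamini-Hochberg over all genes. Scripts were tested on simulated data. The genes and lists were chosen with earlier results of these data known. Named were all 10 clock genes, the genes called on each other list or else the 2 of smallest p, and the 5 genes most and the 5 least like Arntl and Dbp across pups; some genes this rule names are not reported here, and Nfil3, Hlf and Clock were added after their values were seen. Alternatives changed the offset, correction, scaling, probe filter and averaging, model, sex, slide and pups. The authors' matrix served as another alternative.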

Additional observations from a re-analysis of the deposited data

How the results depend on the processing

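The finding of 0 called clock genes between sexes, between the CSD litters and for delivery mode by sex was the same under all alternatives run, and that between CSD and VD pups under all but 1 (Per1, without the litter of mother 6). Leaving out 1 pup or litter at a time gave 0 to 1 clock genes between CSD and VD, 0 to 0 between the sexes, 0 to 0 between the litters of mothers 3 and 4, 0 to 2 between those of mothers 5 and 6 and 0 to 0 for delivery mode by sex. It gave 138 to 2265 genes of the whole array between CSD and VD, 0 to 3 genes of the other clock machinery, 0 to 5 rhythmic output genes, 0 to 3 clock genes with an exact p of the difference of group means under 0.05, 2 to 5 correlated pairs, and a CSD minus VD difference of the phase index from -0.24 to 0.40.

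Against 460 genes of the whole array between CSD and VD, a normexp offset of 0 gave 102, an offset of 16 gave 243, the scanner-corrected intensity gave 177 when quantile-normalized and 164 when scaled to the 75th percentile, the deposited gene matrix gave 170, no sex term gave 992, males only gave 0, slide 1 only gave 11, slide 2 only gave 0 and litter means as samples gave 0. Against the 2 clock genes between the litters of mothers 5 and 6, an offset of 0 gave 0, an offset of 16 gave 1, scanner-corrected intensity gave 0 by either scaling, the brightest probe per gene gave 1, no sex term gave 1, and males only, slide 1 only and slide 2 only each gave 0. Against 1 gene of the other clock machinery (Tipin), the count was 0 with offset 0, offset 16, scanner-corrected intensity by either scaling, the deposited gene matrix, males only, either slide only and litter means as samples. Against 1 rhythmic output gene (Por), the brightest probe and no sex term each gave 3, and scaling to the 75th percentile, males only, either slide only and litter means gave 0. Of the differences of group means, the 1 clock gene with an exact p under 0.05 (Per1) became 0 with offset 0, with scanner-corrected intensity by either scaling, with males only and with slide 1 only. The correlated pairs in CSD pups, 3 as reported, were 5 with probes well above background on at least 8 arrays and 1 with the brightest probe.

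The difference of group means of Per1 reversed to -0.0096 with scanner-corrected, quantile-normalized intensity (exact permutation p = 0.950), and that of Tef, 0.01 over all pups (fitted value 0.03), was -0.39 without the litter of mother 5 (exact permutation p = 0.0424) and 0.26 without the litter of mother 6. The causes were not tested, and the settings that leave samples out also hold fewer samples.

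Both delivery modes use the pup numbers 5 to 9, but deviations of same-numbered pups correlated from -0.05 to 0.22, so the numbers do not pair the pups. With the replicate block, on those pups alone and with no sex term, 0 genes of the whole array were called between CSD and VD, 0 clock genes between the litters of mothers 5 and 6, 0 genes of the other clock machinery and 0 rhythmic output genes. Delivery mode by sex could not be fitted without the litter of mother 5, and correlations were not run with fewer than 6 pups in a delivery mode. Npas2 and 1 probe each of Per1, Per2, Cry1 and Arntl were not well above background on all arrays, which limits these genes.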

Other observations

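Outside the clock, the genes most like Dbp across the 16 pups after Ciart, with the mean of each delivery mode subtracted, were Gcsh (r = 0.89), a protein of glycine cleavage, Sh3glb1 (0.88), Zfyve21 (0.88) and Fbxo7 (0.87). Most opposite to Dbp were Aim2 (-0.95), a cytosolic DNA sensor of the inflammasome, Gm8994 (-0.92), Arap1 (-0.92), Cables2 (-0.90) and Gnai2 (-0.90). For each of these genes after Ciart, r was weaker within CSD than within VD pups, whose litters stood apart for Dbp. It was 0.59 against 0.95 for Sh3glb1, -0.68 against -0.97 for Cables2 and -0.89 against -0.90 for Gnai2. With Arntl as the reference, the replication-dependent histone genes Hist1h3d (0.86) and Hist1h3c (0.86) came first, followed by Ppp1r14d (0.86) and Capzb (0.86). Most opposite to Arntl were Lrrk2 (-0.90), Pmpcb (-0.89), Sec62 (-0.89), D7Wsu130e (-0.87) and an unnamed non-coding probe on chromosome 4 (-0.85). Histone RNA of this kind belongs to dividing cells, and near-identical histone genes may share a probe's signal. These are the extremes of 20526 genes over 16 pups from 4 litters, so they are given as values only.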
